A study of Mus musculus with 10 samples.

Results

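The genes described here encode 10 detoxifying enzymes that are known from the sustentacular (supporting) cells and glands of the olfactory epithelium. They are the cytochrome P450 genes Cyp2g1, Cyp2a4, Cyp2a5, Cyp1a2 and Cyp2f2, the monooxygenase gene Fmo2, the aldehyde dehydrogenase gene Aldh1a7, and the conjugating enzyme genes Ugt2a1, Gstm1 and Gstm2. The list was given by name, and all 10 were among the 24421 rows of the count table. RNA-seq of the whole main olfactory epithelium (MOE) was done on C57BL/6 mice at postnatal day 14 that were wild type (WT, 3 libraries), carried 1 allele with TAAR enhancers 1 and 2 both deleted (het, 3 libraries), or carried the deletion on both alleles (homo, 4 libraries). The study established 1 double knockout line, by editing enhancer 1 in zygotes from mice homozygous or heterozygous for the enhancer 2 deletion, so that het and homo mice are a single line. C57BL/6 is the strain as the labels give it, and the study describes its mouse lines as having a mixed background of C57BL/6J and 129. The enhancers drive Taar genes in sensory neurons, and the comparison asked here was whether these enzymes of non-neuronal cells differed between genotypes.

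Sustentacular cells line the apical surface of the olfactory epithelium and, with Bowman's glands beneath it, hold some of the highest levels of drug-metabolizing enzymes outside the liver. In the usual scheme, phase I enzymes (P450s, flavin monooxygenases, aldehyde dehydrogenases) oxidize an odorant or toxicant, and phase II enzymes (glucuronosyltransferases, glutathione S-transferases) attach a polar group so that it can leave the cell. P450s take their electrons from the reductase encoded by Por.

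Of the 10 enzymes, 0 were called different between any pair of genotypes, against at most 0.0756% of all genes tested in a comparison. The more abundant transcripts of the tissue included 9 of the 10. Together the 10 made up 1.21% to 1.43% of all counts of a library. Cyp2a5 ranked 2 and Cyp2g1 ranked 14 among all rows by mean CPM (counts scaled to a library total of 1000000). Cyp2a4, whose coding sequence is nearly that of Cyp2a5, ranked 15000 with 17 to 57 counts per library. The groups overlapped pairwise for 8 of the 10, while for Cyp2g1 and Cyp2a4 the het libraries lay above the WT libraries by differences that did not pass the test. Het and WT libraries were apart for 5.22% of all genes tested.

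Depth was even, with 21423861 to 27712948 counts in a library. The labels were checked on the summed CPM of 14 olfactory Taar genes, which was 30.9 to 36.7 in the WT and het libraries and 0.0934 to 0.221 in the homo libraries. Markers of supporting cells other than enzymes were abundant in every library, with 4169 to 4820 CPM over 6 genes, led by Sec14l3, Reg3g and Krt18. Bowman's gland markers reached 1006 to 2871 CPM over 6 genes, led by Lcn11, Ltf and Muc5b, although Prol1 was at 0 in every library. Liver markers, which would mark a hepatic source of P450 transcripts, summed to 0.117 to 0.541 CPM over 6 genes. Which cell type held each enzyme was not measured in this bulk tissue, where fewer cells of a type and less RNA per cell cannot be told apart. The study describes mice of the 3 genotypes as littermates, while the labels do not name the animals or litters.

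Cyp2a5 (chr7:26835305-26843548, plus strand, mm10) and Cyp2a4 (chr7:26307169-26315088, plus strand) lie in the same P450 gene cluster. Cyp2a5 is the mouse coumarin hydroxylase and Cyp2a4 a steroid hydroxylase. Their coding sequences of 1482 bases differ at 23 bases, an identity of 98.4%. The stretch of 60 coding bases that separates them best, bases 596 to 655 counted from the start codon, is shown because reads can be told apart only at such bases, and the 4 mismatches are in capitals.
Cyp2a5 coding: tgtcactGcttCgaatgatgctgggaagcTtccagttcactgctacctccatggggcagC
Cyp2a4 coding: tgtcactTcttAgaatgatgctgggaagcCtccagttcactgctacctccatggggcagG
Of all windows of 100 bases, 11.2% of those of the Cyp2a4 transcript and 14.4% of those of the Cyp2a5 transcript also occur in another gene. Neither the read length nor the handling of multi-mapped reads was given in the sources used here.

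The DNA upstream of the 2 genes is as alike as their coding sequences. Over the 216 bases that end before the first annotated exon of Cyp2a5 (chr7:26835089-26835304 and chr7:26306943-26307158, GRCm38.p6, both plus strand, RefSeq promoter table), identity was 98.1%, and the sequences are printed because the 2 genes differ so widely in level. Capitals mark the 4 mismatches.
Cyp2a5 upstream: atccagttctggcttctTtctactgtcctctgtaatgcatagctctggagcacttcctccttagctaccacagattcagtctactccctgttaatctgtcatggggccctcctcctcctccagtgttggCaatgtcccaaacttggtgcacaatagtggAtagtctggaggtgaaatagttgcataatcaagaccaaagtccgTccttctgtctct
Cyp2a4 upstream: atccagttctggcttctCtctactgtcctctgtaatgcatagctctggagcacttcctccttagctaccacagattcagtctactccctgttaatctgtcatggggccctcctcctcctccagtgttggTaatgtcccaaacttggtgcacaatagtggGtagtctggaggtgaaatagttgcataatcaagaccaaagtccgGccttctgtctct
With the Cyp2a5 base first and positions counted from 1 at the 5′ end of the printed Cyp2a5 stretch, the substitutions are T18C, C130T, A160G and T204G, which lie 233, 121, 91 and 47 bases before the RefSeq start of Cyp2a5. C130T changes the last letter of TTGGC, a core motif of nuclear factor I (reverse complement GCCAA), which the Cyp2a5 stretch holds once and the Cyp2a4 stretch does not hold. Whether any of these substitutions bears on the levels of the 2 genes was not tested. Of 32851 promoter windows of 250 bases before to 50 after a start, 46.7% hold the TTGGC motif on either strand. Of the 9 enzymes with a window, 6 held it in at least 1 window. Fmo2 and Gstm1 had more than 1 window, so that this count is of genes and the 46.7% is of windows. Fmo2 held the motif in only 1 of its windows. The table had no window for Cyp2g1.

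Among the P450s, Cyp2a5 stood at 6010, 5552 and 6320 CPM in WT libraries 1 to 3, at 6099.7, 6404 and 5935 CPM in het libraries and at 6215, 5955, 6768 and 5263 CPM in homo libraries 1 to 4. The 3 groups overlapped, and both the highest and the lowest library were homo. The homo to WT ratio was 102% with a 95% interval of 87.9% to 118%.

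Cyp2a4 had 35, 20 and 36 counts in WT, 41, 50 and 57 in het, and 49, 37, 52 and 17 in homo libraries. This is 1.31, 0.782 and 1.56 CPM in WT, 1.80, 2.10 and 2.32 CPM in het, and 2.29, 1.64, 2.20 and 0.613 CPM in homo libraries. Every het library lay above every WT library, whereas the homo libraries spanned the range of both. The log2 fold change was 0.77 (SE 0.40) between het and WT and 0.47 (SE 0.39) between homo and WT, and neither passed the test (edgeR unadjusted p = 0.0731 and 0.240). Per kilobase of exon the mean Cyp2a5 level was 3056 times that of Cyp2a4. Counts of Cyp2a4 were 0.0117% of those of Cyp2a5 in homo library 4 and up to 0.0390% in the others, so that the ratio moved by 3.35 times. Whether some of these counts were reads of Cyp2a5 was not tested. Cyp2a4 is known for a sex difference in mouse liver. In the 4 libraries with 196 to 293 CPM of 4 Y-linked genes it was at 1.31, 1.80, 1.64 and 2.20 CPM, within the 0.613 to 2.32 CPM of the 6 libraries without them.

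Cyp2g1 (chr7:26808892-26821205, plus strand), a P450 known almost only from the olfactory mucosa, had the smallest SD of its log2 level within genotype among the 10. It was at 2676, 2462 and 2814 CPM in WT, at 2871, 3075 and 2891 CPM in het, and at 2839, 2608, 2956 and 2677 CPM in homo libraries. The het libraries lay above the WT libraries without overlap, by a log2 fold change of 0.15 (SE 0.097), which did not pass the test (edgeR unadjusted p = 0.137). The homo libraries overlapped both other groups. The summed supporting-cell markers were also apart between WT (4169 to 4254 CPM) and het libraries (4321 to 4678 CPM), with 4212 to 4820 CPM in homo libraries. Most of this sum was Sec14l3, at 3094 to 3116 CPM in WT and 3184 to 3536 CPM in het libraries. Its log2 fold change between het and WT was 0.11 (SE 0.093), without overlap. Of the 6 markers, 4 were higher and 2 lower in het than in WT, from -0.12 to 0.17 on the log2 scale, and 0 were called. With the marker level as a term of the model, the het to WT log2 fold change of Cyp2g1 was 0.072 (SE 0.11).

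Cyp2f2 (chr7:27119909-27133660, plus strand) is the P450 that activates naphthalene in airway Club cells. Its levels were 1531, 1233 and 1355 CPM in WT, 1479.8, 1407 and 1349.8 CPM in het, and 1469, 1550.1, 1483 and 1448 CPM in homo libraries. WT library 2 was the lowest and homo library 2 the highest, and the homo libraries lay close together and overlapped both other groups.

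Cyp1a2 (chr9:57676937-57683703, minus strand) oxidizes aromatic amines and is a target of the aryl hydrocarbon receptor. It stood at 394, 349 and 338 CPM in WT, at 417, 383 and 362 CPM in het, and at 415, 399, 443 and 306 CPM in homo libraries. As for Cyp2a5, homo library 3 was the highest and homo library 4 the lowest of all 10 libraries.

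**Figure D1:**
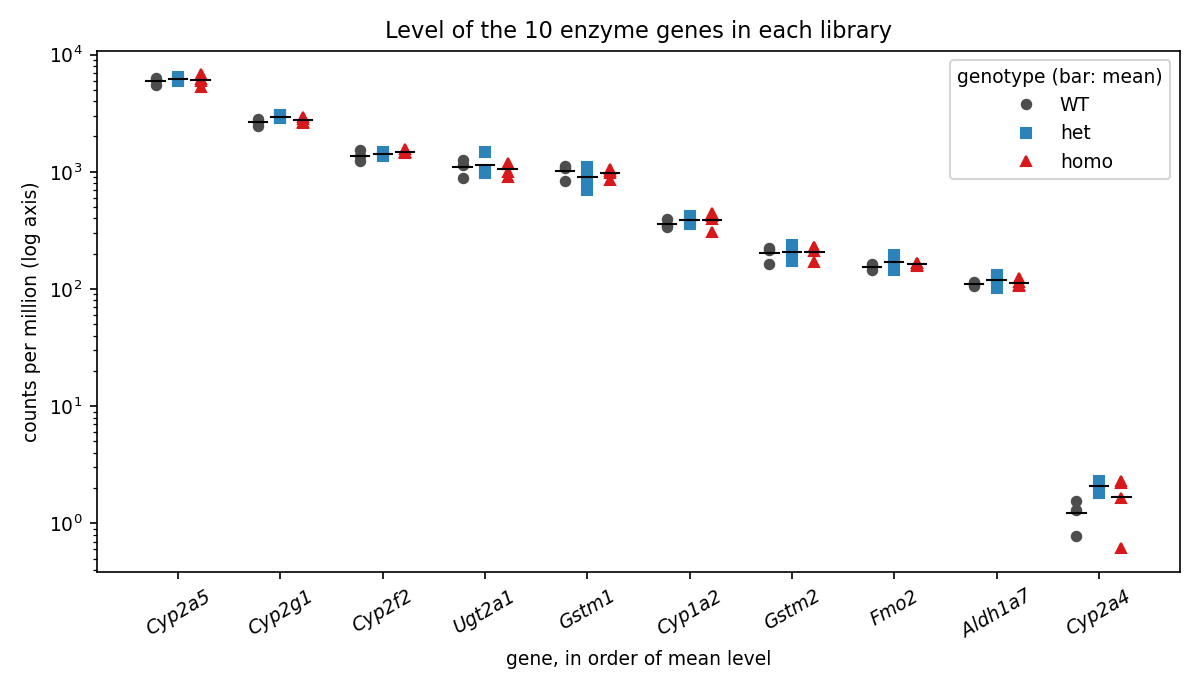
CPM (log axis) of the 10 enzyme genes in each library, with WT libraries as circles, het as squares and homo as triangles, and a bar at each group mean. Levels run from 6768 CPM (Cyp2a5 in homo library 3) to 0.613 CPM (Cyp2a4 in homo library 4), and for 8 of the 10 genes the 3 groups overlap pairwise. Het and WT are apart for Cyp2g1 and Cyp2a4, and for 5.22% of all genes tested.

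Fmo2 (chr1:162874317-162898726, minus strand), a flavin monooxygenase known chiefly from lung, oxidizes nitrogen and sulfur atoms of foreign compounds. It was at 157, 165 and 144 CPM in WT, at 172, 194 and 146 CPM in het, and at 167, 166, 157 and 159 CPM in homo libraries. Het library 2 was the highest, and the homo libraries lay within the WT and het range. Aldh1a7 (chr19:20692953-20727562, minus strand), a relative of the retinaldehyde dehydrogenase Aldh1a1, ranged from 102 CPM in het library 1 to 130.4 CPM in het library 3, and the het libraries spanned the levels of all others.

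Among phase II enzymes, Ugt2a1 (chr5:87459490-87490871, minus strand) encodes the olfactory UDP-glucuronosyltransferase. It was at 1135, 1266 and 878 CPM in WT, at 1010.1, 1466 and 967 CPM in het, and at 996, 1164, 1189 and 911 CPM in homo libraries. The highest library exceeded the lowest by 1.67 times, the widest ratio of the 10 genes after Cyp2a4. Ugt2a1 shares exons with Ugt2a2 and with the overlapping gene Gm43638. Of the 100-base windows of its transcript, 94.9% also occur in Ugt2a2, Gm43638 or Gm7646, so that Ugt2a1 and Ugt2a2 are uncertain as single genes. Counts of Ugt2a2 were 5.44% to 6.80% of those of Ugt2a1.

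Gstm1 (chr3:108012255-108017973, minus strand) and Gstm2 (chr3:107981702-107986453, minus strand) encode mu-class glutathione S-transferases, whose coding sequences of 654 bases are 85.9% identical. Gstm1 stood at 1083, 837 and 1117 CPM in WT, at 893, 692 and 1098 CPM in het, and at 1058, 853, 972 and 1013 CPM in homo libraries. Gstm2 followed it at lower levels, with 223, 165 and 214 CPM in WT, 209.9, 174 and 238 CPM in het, and 210.2, 169, 226 and 229 CPM in homo libraries. In each genotype library 2 was the lowest for both genes. Gstm2 counts were 19.2% to 25.2% of Gstm1 counts.

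Levels of different genes were compared per kilobase of exon (CPM per kb, GENCODE exons). Cyp2a5 led with a mean of 2920 over the 10 libraries, followed by Cyp2g1 (1299), Cyp2f2 (706), Gstm1 (653), Ugt2a1 (427), Cyp1a2 (189), Gstm2 (123), Aldh1a7 (55.2), Fmo2 (29.0) and Cyp2a4 (0.955). Ranges of neighbours were apart except for Cyp2f2 with Gstm1 and Gstm1 with Ugt2a1. Cyp2f2 was above Gstm1 in 8 of 10 libraries, while in WT alone the means were 678 ± 73.8 (SD, n = 3) for Cyp2f2 and 687 ± 104 (SD, n = 3) for Gstm1. Gstm1 was above Ugt2a1 in 9 of 10 libraries. The place of Ugt2a1 is uncertain, because its full exon length was used although most of its transcript is shared with other genes. On this scale Cyp2a5 ranked 5 among all rows with an exon length and Fmo2, the longest transcript, ranked 1693.

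The genotypes were then compared in 1 edgeR model of all 17197 genes tested. Between homo and WT mice, 0 of the 10 enzymes had an adjusted p under 0.05, against 0.0698% of all genes tested, and 0 had an unadjusted p under 0.05, against 2.41%. Between het and WT mice the counts were 0 of 10 at the adjusted threshold, against 0% of genes tested, and 0 of 10 unadjusted, against 1.92%. Between homo and het mice they were 0 of 10, against 0.0756%, and 0 of 10, against 2.48%. With 10 genes, shares of this size correspond to less than 1 gene, so that these zeros do not set the enzymes apart from other genes. The study groups did not overlap in CPM for 2 of 10 enzymes between het and WT, Cyp2g1 and Cyp2a4, against 5.22% of genes tested, and for 0 of 10 between homo and WT, against 3.55%, and between homo and het, against 3.93%.

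The intervals give the size of difference that these libraries would leave room for. Apart from Cyp2a4, the 95% intervals of the homo to WT ratio ran from 77.2% at the lowest bound (Ugt2a1) to 131% at the highest (Cyp1a2). For Cyp2g1 the ratio was 105% (91.8% to 120%), for Cyp2f2 109% (94.4% to 125%), for Aldh1a7 103% (89.5% to 118%) and for Fmo2 105% (90.9% to 121%). Gstm1 had a ratio of 96.5% (78.8% to 118%) and Gstm2 one of 104% (86.6% to 125%). For Cyp2a4 the interval was 78.7% to 244%, which its low counts leave wide. The median log2 fold change of the 10 enzymes was 0.064 for homo minus WT, 0.087 for het minus WT and -0.041 for homo minus het, beside 0.00012, -0.00088 and -0.00097 over all genes tested.

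**Figure D2:**
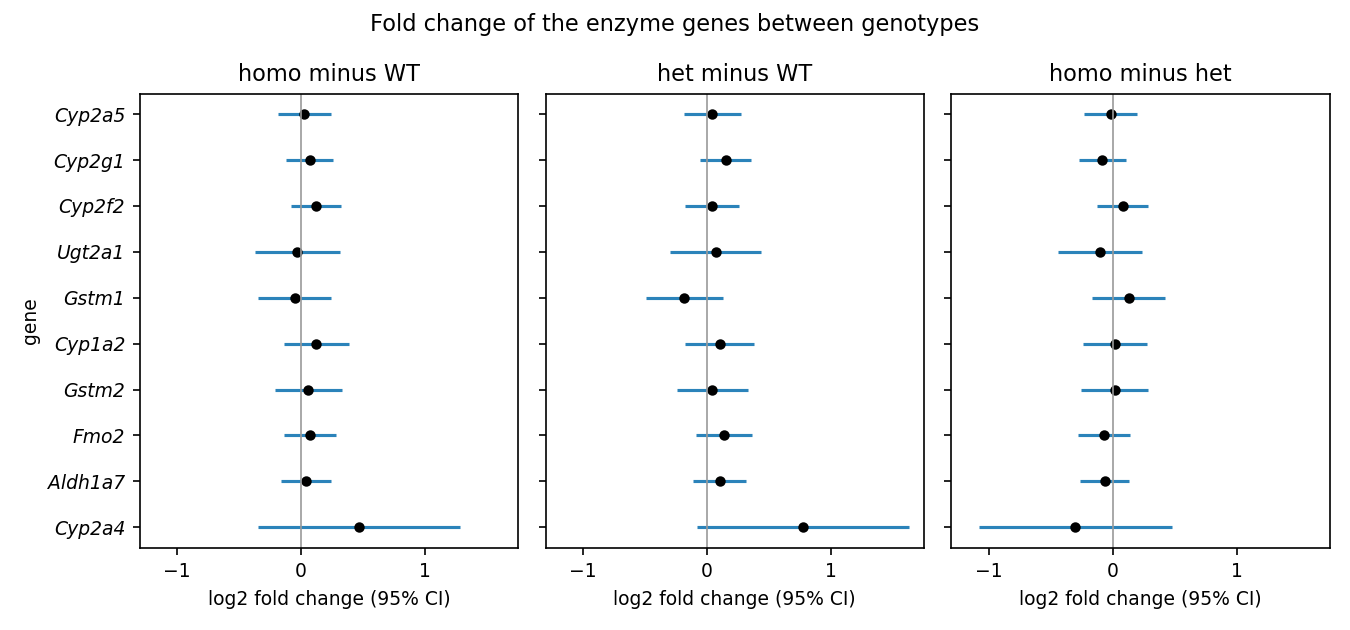
Log2 fold changes of the 10 enzyme genes (points) with 95% confidence intervals (lines) from the edgeR model, in the 3 comparisons of genotypes. Every interval includes 0, and the widest are those of Cyp2a4, with -0.35 to 1.29 between homo and WT.

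Other genes of the pathway were taken from lists by function and by position. Of 32 further P450 and electron-transfer genes, 23 were tested and 0 were called in either direction in any comparison, with medians of 0.024, 0.061 and 0.043 on the log2 scale for homo minus WT, het minus WT and homo minus het. By level these were led by Por (mean 609.7 CPM), the P450 reductase, and by Cyb5a (328 CPM) and Cyb5r3 (195 CPM), cytochrome b5 and its reductase. The smallest p among them belonged to Cyp2b13, with 0.847 ± 0.278 CPM (SD, n = 3) in WT mice, 1.60 ± 0.304 CPM (SD, n = 3) in het mice and 1.60 ± 0.952 CPM (SD, n = 4) in homo mice. Its log2 fold change of 0.94 (SE 0.40) between homo and WT was not called (edgeR unadjusted p = 0.0314). It lies in the P450 cluster of chromosome 7 together with Cyp2g1, Cyp2a4, Cyp2a5 and Cyp2f2. Of the 13 genes listed for that cluster 8 were tested, and 0 were called.

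Of 37 other phase I genes, all 37 were tested and 0 were called, with medians of 0.051, 0.044 and -0.0069. The most abundant were the carbonyl reductase Cbr2 (1309 CPM), the aldo-keto reductase Akr1a1 (848 CPM) and the carboxylesterase Ces1d (685 CPM). Aldehyde oxidase Aox1 was at 3.20 ± 0.249 CPM (SD, n = 3) in WT and at 4.96 ± 0.851 CPM (SD, n = 4) in homo. It had the smallest p of all lists, with a log2 fold change of 0.64 (SE 0.21) between homo and WT (edgeR unadjusted p = 0.00735), and was not called after adjustment. In the Fmo cluster of chromosome 1, which holds Fmo2, 5 of 5 genes were tested and 0 were called. Fmo6 (338 CPM) was above Fmo2 in level, also per kilobase (172 against 29.0), and Fmo1 (112 CPM) was below it.

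Among phase II genes, 26 of 27 listed genes of glutathione metabolism were in the table, 23 were tested and 0 were called, with medians of -0.037, -0.016 and -0.015. They were led by the olfactory glutathione peroxidase Gpx6 (1007 CPM) and the microsomal transferases Mgst1 (263 CPM) and Mgst3 (175 CPM), and Gstp1 had the smallest p, with a log2 fold change of -0.31 (SE 0.15) between het and WT (edgeR unadjusted p = 0.0565). Of the 7 genes of the Gstm cluster 6 were tested and 0 were called. Next to Gstm1 and Gstm2, Gstm5 (136 CPM) was the most abundant and Gstm6 had the smallest p (edgeR unadjusted p = 0.177). Of 29 other conjugating enzymes, among them sulfotransferases and further glucuronosyltransferases, 19 were tested and 0 were called, with medians of -0.017, 0.033 and -0.032. Sult1d1 (662 CPM), Sult1c1 (586 CPM) and Sult4a1 (171 CPM) led these, and Sult1d1 also had the smallest p (edgeR unadjusted p = 0.0542 between homo and het).

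Of 13 regulators of xenobiotic metabolism 11 were tested and 0 were called, with medians of -0.017, -0.026 and 0.024. Nfe2l2 (236 CPM), the factor that drives antioxidant genes, was the most abundant, followed by Arnt (65.4 CPM), the partner of the aryl hydrocarbon receptor, and Keap1 (63.2 CPM), which restrains Nfe2l2. Cebpb had the smallest p (edgeR unadjusted p = 0.222 between homo and WT).

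Spread between libraries of a genotype was described by the SD of log2(CPM + 0.1). It was 0.080 for Cyp2g1, 0.095 for Cyp2f2, 0.11 for Cyp2a5, 0.12 for Aldh1a7 and Fmo2, 0.17 for Cyp1a2, 0.22 for Gstm2, 0.23 for Gstm1, 0.26 for Ugt2a1 and 0.60 for Cyp2a4. The median over all genes tested was 0.18, and over genes with a mean of at least 100 CPM it was 0.13. By this SD, Cyp2g1, Cyp2f2, Cyp2a5, Aldh1a7 and Fmo2 varied less than the median abundant gene, and Cyp1a2, Cyp2a4 and the conjugating enzymes varied more. The edgeR biological coefficient of variation gave another order, with a median of 10.2% over the same abundant genes. Aldh1a7 (9.56%) and Fmo2 (10.1%) were below it. Cyp2f2 (11.5%), Cyp2g1 (11.7%) and Cyp2a5 (12.8%) were above it, as were Cyp1a2, Cyp2a4 and the conjugating enzymes.

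Enzymes were then set against the summed CPM of 2 marker lists across the 10 libraries, as log2 CPM, in 20 relations tested by permutation with 100000 resamples. After Benjamini-Hochberg adjustment over the 20, 0 relations had a p under 0.05 for Pearson's r, and 6 did before adjustment. Cyp1a2 had the largest r with the supporting-cell markers, r = 0.74 (permutation p = 0.0136, adjusted 0.0906) and Spearman's rho = 0.81 (permutation p = 0.00692, adjusted 0.0461). Without homo library 3 and het library 2, the farthest from the median of the markers, r was 0.80, and with genotype means removed it was 0.74. Cyp2a5 (r = 0.70) and Cyp2g1 (r = 0.65) had the next largest r with these markers, which were 0.36 and 0.32 without the same 2 libraries.

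**Figure D3:**
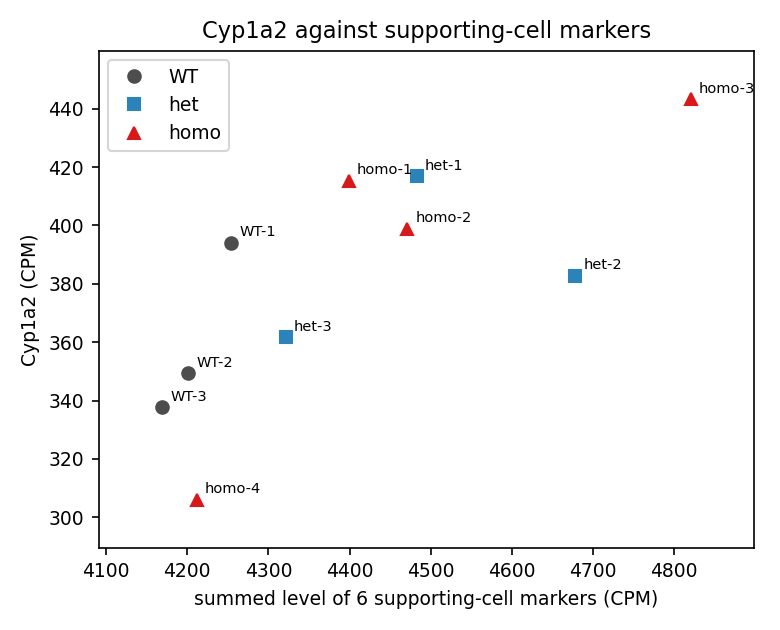
Cyp1a2 (CPM) against the summed level of 6 supporting-cell markers (CPM) in the 10 libraries, marked by genotype, on axes that do not start at 0. Homo library 3 is highest on both axes, at 443 CPM of Cyp1a2 and 4820 CPM of markers, and homo library 4 is lowest for Cyp1a2 at 306 CPM.

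Against markers of mature sensory neurons, Gstm1 and Gstm2 had r = 0.74 (permutation p = 0.0136, adjusted 0.0906, rho = 0.82) and r = 0.76 (permutation p = 0.0121, adjusted 0.0906, rho = 0.67), while Fmo2 had r = -0.71 (permutation p = 0.0193, adjusted 0.0930, rho = -0.82). The adjusted permutation p of rho was 0.0461 for Gstm1 and for Fmo2, and 0.171 for Gstm2. With genotype means removed, r was 0.82 for Gstm1 (permutation p = 0.00426, adjusted 0.0426), 0.86 for Gstm2 (permutation p = 0.00092, adjusted 0.0184) and -0.75 for Fmo2 (permutation p = 0.0108, adjusted 0.0540). These permutations shuffled the centred values over all libraries without regard to genotype or to the means removed. Their p-values are therefore too small, and no relation is taken as passing on them. The libraries also differed in a trend of expression with GC content of the transcript, whose correlation with the log2 deviation of 12459 genes from their means was -0.61 in het library 2 and 0.43 in homo library 4. Gstm1 has 53.6% GC in 1289 bases and Gstm2 51.5% in 1064 bases, whereas Fmo2 has 43.6% in 4066 bases and Ugt2a1 39.9% in 2570 bases. With each library's trends on GC content and transcript length removed, r with the neuron markers was -0.084 for Gstm1, -0.15 for Gstm2 and -0.38 for Fmo2. The r of Cyp1a2 with the supporting-cell markers was 0.86 after this correction (permutation p = 0.00188, adjusted 0.0376).

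Pairs of enzymes were compared in the same way after their values had been seen. Of 45 pairs, 34 had an r above 0, 11 had a permutation p under 0.05 and 1 was under 0.05 after adjustment over the 45. That pair was Gstm1 with Fmo2, at r = -0.88 (permutation p = 0.00105, adjusted 0.0472) and rho = -0.79 (permutation p = 0.00895, adjusted 0.201). Het library 2 had the lowest Gstm1 and the highest Fmo2, and WT library 3 the reverse. Without het library 2 and WT library 2, the farthest from the median of Gstm1, r was -0.75, and with genotype means removed it was -0.86. With the trends on GC content and length removed, r was -0.37 (permutation p = 0.296, adjusted 0.583).

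**Figure D4:**
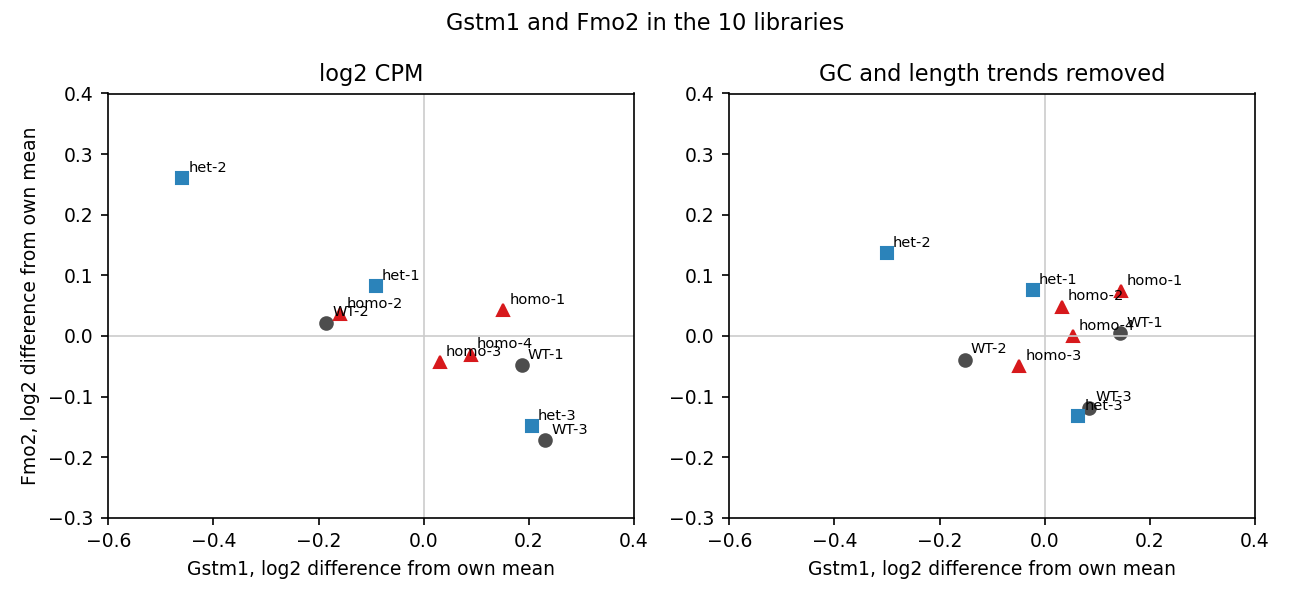
Gstm1 and Fmo2 in the 10 libraries, each as log2 CPM minus the gene's own mean, before (left) and after (right) removal of each library's trends on GC content and transcript length. Het library 2 lies at -0.46 for Gstm1 and 0.26 for Fmo2 on the left and at -0.30 and 0.14 on the right, and r over the libraries is -0.88 and -0.37.

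Other pairs behaved differently under that correction. Ugt2a1 with Gstm1 went from r = -0.82 to -0.53, Ugt2a1 with Fmo2 from 0.72 to 0.57, and Gstm1 with Gstm2 from 0.80 to 0.57. Without het library 2 and WT library 3, and before the correction, Ugt2a1 was at 0.20 with Fmo2 and at -0.57 with Gstm1. The P450 pair Cyp2g1 with Cyp2a5 was at 0.72 before and 0.72 after, and Cyp2a5 with Cyp1a2 was at 0.73 and 0.80, although the latter fell to 0.22 without homo libraries 3 and 4. Cyp2f2 with Fmo2 was at 0.16 before and 0.81 after. After the correction 0 of 45 pairs had an adjusted p under 0.05, and the smallest permutation p was 0.00532. Cyp2a4 with Cyp2a5 had r = 0.84 (permutation p = 0.0028, adjusted 0.0558), which fell to 0.35 without homo library 4 and WT library 2 and so rested on them.

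**Figure D5:**
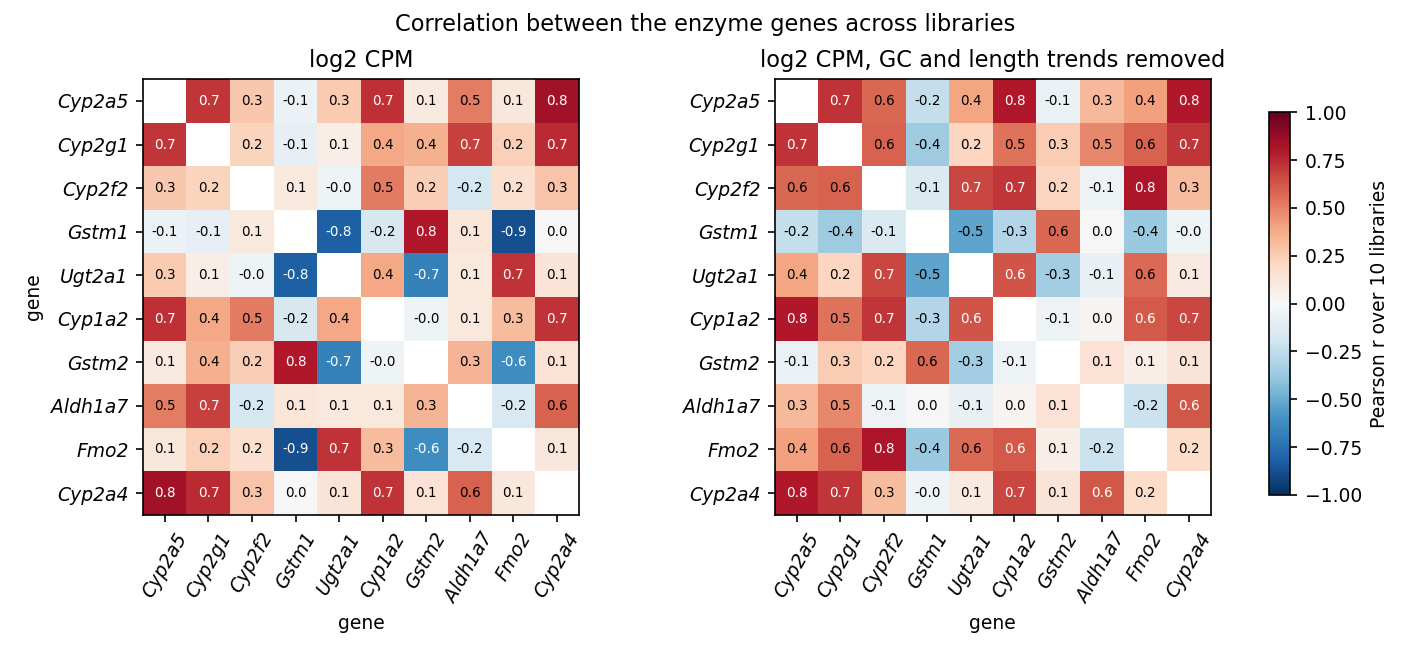
Pearson's r over the 10 libraries for each pair of enzyme genes, in order of level per kilobase, on log2 CPM (left) and with trends on GC content and length removed (right), in colour from -1 (blue) to 1 (red). The blue cells of Gstm1 with Fmo2 (-0.88) and with Ugt2a1 (-0.82) on the left are paler on the right (-0.37 and -0.53), while Cyp2g1 with Cyp2a5 stays at 0.72.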

How the data were processed

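Total RNA of whole MOE was made into directional poly(A) libraries. The authors trimmed reads (Trimmomatic 0.36), aligned them to mm10 (HISAT2 2.1.0) and deposited raw counts per gene (featureCounts of Subread 1.6.2). They also deposited a normalized signal table, which is the counts divided by 1 DESeq2 (1.20.0) size factor per library. The annotation, strand setting and handling of multi-mapped reads were not given in the sources used here. The alpha and beta haemoglobin genes, which exist as pairs of copies, were at 0 counts in every library. 0 columns lacked a sample.

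Raw counts were fitted with edgeR 4.0.16 in R 4.3.3 (filterByExpr with minimum count 10 and minimum total 15, TMM scaling, robust quasi-likelihood F test, two-sided, genotype as the only term), with Benjamini-Hochberg adjustment over 17197 genes tested. An adjusted p under 0.05 was a call. The common biological coefficient of variation was 13.9%. The fit was tested on simulated data. CPM is 1000000 × counts over the library total. Gene positions, exon lengths, GC content and coding sequences are from GENCODE M21 (mm10, 1-based), and promoters from the RefSeq table. GC content was known for 96.4% of genes tested, and library trends were fitted by lowess (span 0.3) over genes above 5 CPM. Counting error was small beside the spread between libraries except for Cyp2a4. No pair of libraries of a genotype was alike to within sampling noise, with chi-square per degree of freedom from 13.9 to 47.0.

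WT and het libraries of the same replicate number were weakly alike, with deviations from the group means that correlated for all 3 numbers (r = 0.33, 0.29 and 0.23). Homo libraries were not alike in this way with WT (-0.099, -0.012 and -0.073) or with het (-0.15, 0.16 and 0.068). Libraries of different numbers were not compared. The labels give no pairing of the libraries, and the cause of the likeness was not tested. Alternatives were DESeq2 1.42.0, other scalings and filters, a replicate block, terms for Y-linked genes and supporting-cell markers, limma 3.58.1 on log2 of the normalized signal plus 1, each library left out, and corrections for GC content and length added after seeing the data. Of each list of enzymes or regulators the text names the 3 genes with the highest mean CPM, those called and the 1 with the smallest p. For the supporting-cell and gland markers it names the 3 with the highest mean CPM. The neuron marker list held 10 genes, led in mean CPM by Omp, Gnal and Cnga2. One gene that this rule names is not reported here. The enzymes and lists were chosen with earlier results of these data known.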

Additional observations from a re-analysis of the deposited data

How the results depend on the processing

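Depth limited Cyp2a4, and shared sequence limited Ugt2a1 with Ugt2a2 and Cyp2a4 with Cyp2a5. The count of enzymes called was 0 in every comparison under every alternative run, and the smallest adjusted p of any was 0.743 (edgeR, Gstm1). An unadjusted p under 0.05, which 0 enzymes had as reported, was reached by 16 of 692 recomputed fold changes, for Cyp2a4, Cyp1a2, Cyp2g1, Gstm1 and Fmo2, most often with a replicate block or without homo replicate 4 or het replicate 3, and the smallest was 0.0175 (edgeR, Gstm1, het minus WT). Homo minus WT was 0.77 (Cyp2a4) and 0.23 (Cyp1a2) without homo replicate 4. Of the 692, 54 changed sign, and none of these had exceeded 0.13 on the log2 scale. Fitted with a replicate block, 0 enzymes were called, against 19, 0 and 24 of all genes for homo minus WT, het minus WT and homo minus het (12, 0 and 13 without it). In WT and het libraries alone, where those of the same number correlated, the block gave 0 enzymes called and 3 of all genes. With the block, log2 fold changes that changed sign were 0.065 (Ugt2a1, homo minus WT), and 0.054 (Cyp2a5), 0.0060 (Ugt2a1) and -0.019 (Gstm2) for homo minus het. In WT and het alone with the block and the GC and length correction, Ugt2a1 was at -0.0019. With a term for supporting-cell markers, homo minus WT was -0.0056 (Cyp2g1), -0.12 (Cyp2a5), -0.078 (Cyp1a2), 0.083 (Gstm1), -0.024 (Aldh1a7) and -0.014 (Fmo2), and het minus WT was -0.11 (Cyp2a5), -0.10 (Cyp1a2), -0.0090 (Cyp2f2) and -0.24 (Ugt2a1). With a term for Y-linked genes, Cyp1a2 was at -0.018 for homo minus het. With copies summed, Gstm1 and Gstm2 together were at -0.032 (homo minus WT) and -0.14 (het minus WT), with the sign of Gstm1 alone (-0.051 and -0.18). Gstm2 had no value of its own in that fit, although these values of the sum were counted as its changes of sign.

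With the GC correction, which like the length correction was chosen after seeing the data, het minus WT was -0.013 (Ugt2a1), and homo minus het was -0.0064 (Cyp1a2), 0.0099 (Ugt2a1), -0.0049 (Gstm2) and 0.00010 (Fmo2). With GC and length, Ugt2a1 was at 0.0033, -0.0024 and 0.0057 in the 3 comparisons, Gstm1 at 0.022 (homo minus WT) and Cyp1a2 at -0.0057 (homo minus het). Without 1 library, log2 fold changes that changed sign for homo minus WT ran from -0.030 to 0.10 (Cyp2a5), -0.17 to 0.084 (Ugt2a1), -0.18 to 0.019 (Gstm1), -0.069 to 0.14 (Gstm2) and -0.0062 to 0.074 (Aldh1a7). For het minus WT they ran from -0.0036 to 0.081 (Cyp2a5), -0.030 to 0.13 (Cyp2f2), -0.15 to 0.19 (Ugt2a1) and -0.078 to 0.15 (Gstm2). For homo minus het they ran from -0.074 to 0.056 (Cyp2a5), -0.044 to 0.13 (Cyp1a2), -0.22 to 0.12 (Ugt2a1), -0.019 to 0.29 (Gstm1), -0.089 to 0.12 (Gstm2) and -0.17 to 0.041 (Fmo2).

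Of the 20 relations with marker lists, the number with an adjusted permutation p under 0.05 for r was 0 as reported and without the 2 farthest libraries. It was 2 with genotype means removed (Gstm1 and Gstm2 with neuron markers), where the permutation did not allow for the means removed and gave p-values that are too small. It was 1 with the GC and length correction (Cyp1a2 with supporting-cell markers). Values of r that changed sign against neuron markers were 0.15 (Cyp1a2), 0.015 (Ugt2a1), -0.084 (Gstm1) and -0.15 (Gstm2) with that correction, 0.10 (Cyp1a2) and 0.0016 (Cyp2f2) with genotype means removed, and 0.23 (Cyp1a2) and 0.31 (Cyp2f2) without the 2 libraries, and against supporting-cell markers -0.21 (Aldh1a7) without them. The cause of these changes was not tested.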
